A study of Sus scrofa with 48 samples.

Results

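The phagocyte NADPH oxidase subunits CYBA, CYBB, NCF1, NCF4 and RAC2 were described in PRAT (perirenal adipose tissue, the depot that surrounds the kidneys) of 48 Large White barrows, which are castrated males, aged 132 days by the labels. The pigs belonged to lines selected in opposite directions over generations for RFI (residual feed intake, the feed eaten beyond what growth and maintenance predict). Low RFI (RFIneg) pigs are the efficient ones and high RFI (RFIpl) pigs the inefficient ones. Pigs of both lines ate either HF, a diet rich in fat and fiber, or LF, a diet poor in both and based on starch, which gave 4 groups of 12 pigs. RNA of each pig's whole tissue was read on 1 single-colour porcine array, so no cell type was isolated. Of 60305 probes, 6 carried the gene name of a subunit, for 4 of the 5 genes, and none carried the name CYBB. A further 7 probes were assigned after the files had been read, through a RefSeq accession, a RefSeq synonym, the probe description or an identical probe sequence, which brought the total to 13 probes of 5 genes. The array names CYBB by its older name GP91-PHOX.

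The phagocyte NADPH oxidase passes electrons from NADPH across a membrane to oxygen and so makes superoxide, with which neutrophils and macrophages kill ingested microbes. Its catalytic core lies in the membrane and consists of CYBB (gp91phox, also called NOX2), which carries the electrons, and CYBA (p22phox), which stabilises it. In resting cells the organiser NCF1 (p47phox) and NCF4 (p40phox), which binds a phosphoinositide of the phagosome membrane, stay in the cytosol, and they join the core on activation together with the small GTPase RAC2. In adipose tissue CYBB is mainly known from resident macrophages, whereas CYBA also partners other oxidases of the NOX family and RAC2 is expressed in blood cells of many kinds.

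The probes are single-stranded and 60 bases long, and they are named here by gene and a letter in order of brightness. Those on which the comparisons turn are shown 5′ to 3′ as the scanner files give them, with capitals for bases shared with another subunit probe on either strand. CYBA-a and CYBA-b shared 56 bases, and CYBA-c is the exact reverse complement of CYBA-a over all 60 bases. CYBB-a and CYBB-b shared 57 bases, NCF4-b and NCF4-c held the same 60 bases, and so did NCF1-a and NCF1-b. The 13 probes therefore hold fewer independent readings than their number, and members of such a pair are not replicates of each other. The ends of the CYBA and CYBB probes show the overlaps and the inverted probe.
CYBA-a, last 30 bases: TGGTGAATCAGCTGTTTCATGAAATATGTA
CYBA-b, last 30 bases: GAATCAGCTGTTTCATGAAATATGTAtctg
CYBA-c, first 30 bases: TACATATTTCATGAAACAGCTGATTCACCA
CYBB-a, last 30 bases: CCAGTTGATAATAGAAGTTCCTTCCTTaaa
CYBB-b, last 30 bases: ATGCCAGTTGATAATAGAAGTTCCTTCCTT
The next probes are those with a sequence of their own, and the pairs of identical spots of NCF4 and NCF1.
CYBB-c: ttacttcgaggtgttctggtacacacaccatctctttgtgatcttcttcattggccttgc
NCF4-a, first 30 bases: gctcgtgcggtctcgacatctggtctctga
NCF4-b and NCF4-c: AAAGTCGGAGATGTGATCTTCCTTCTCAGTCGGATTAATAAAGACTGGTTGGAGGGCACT
NCF1-a and NCF1-b, first 30 bases: GGAGTCTGACACCCTCTCACAGACATATAT
NCF1-c: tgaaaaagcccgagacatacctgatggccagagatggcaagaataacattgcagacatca
RAC2, first 30 bases: ccatctcttgtctttctgctccactcacag

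A level is log2 of the median intensity of a spot minus the median of its array, and a difference is the gap between 2 such levels, so that both are relative to the median probe. The median intensity of an array lay between 115 and 178, from 38875 to 47813 probes per array passed the scanner's test for signal well above background, and the arrays lay on 6 slides, each with 2 arrays of every group, scanned on 2 days. Of the 13 subunit probes, 11 passed it on all 48 arrays, CYBB-c on 46 and NCF1-c on 42, and none was saturated. A probe was called where the limma test gave a raw p under 0.01, a fold over 1.1 and a Benjamini-Hochberg (BH) adjusted p under 0.08 over all 60305 probes. By diet 17.6% of all probes were called, 6.21% higher and 11.4% lower in HF pigs, and 21.2% of 12953 named genes by their brightest probe. The direction of these calls depended on the scaling: 35.2% of them were higher in HF pigs with median centring, 49.3% with centring on the 75th percentile and 90.2% with centring on spike-in controls, which moved the median difference of all probes from -0.04 to 0.09.

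The membrane core, NCF4 and RAC2 were higher in HF than in LF pigs. Of the 6 probes found by gene name, 2 were called, CYBA-a and RAC2, and of all 13 probes 8 were called, all higher in HF pigs, against the 6.21% of all probes called in that direction. With centring on the 75th percentile 9 of 13 were called higher, beside 8.26% of all probes, and with spike-in centring 10 of 13, beside 20.8%. Taking the brightest probe of each gene, CYBB, CYBA, NCF4 and RAC2 were called higher under each of these scalings, and NCF1, by NCF1-a, under none. The median difference of the 13 probes was 0.34 on the log2 scale, beside -0.04 for all probes. The study had placed probes of CYBA, CYBB and NCF4 in a group of genes that it formed from the diet response and correlations of these same pigs, so for these genes the direction is not independent evidence. That list names the probe CYBA-a as CYBB but describes it as the alpha chain of cytochrome b, which is CYBA, the name it has in the scanner files. The bases it shares with CYBA-b, which is named by the RefSeq mRNA of CYBA, also bear that name.

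**Figure D1:**
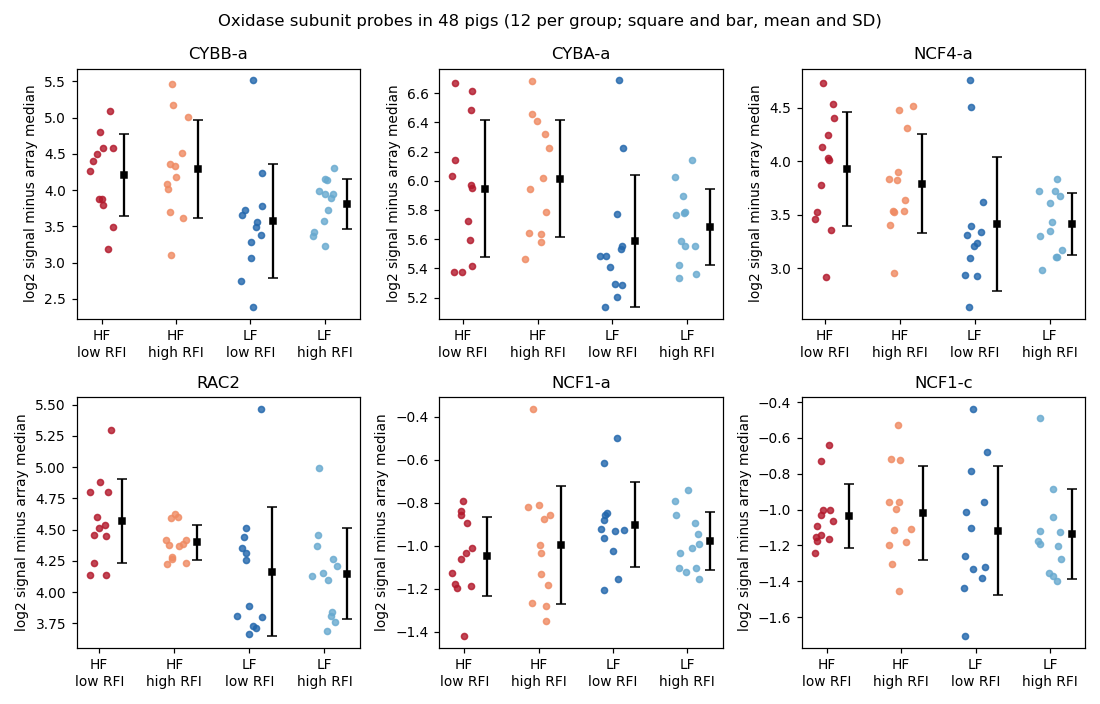
Level of 6 subunit probes (log2 intensity minus the array median) in each of 48 pigs by diet and line; points are pigs, squares and bars the mean and SD of 12 pigs. CYBB-a, CYBA-a, NCF4-a and RAC2 had higher means in both HF groups than in both LF groups, with overlapping pigs, and the means of NCF1-a and NCF1-c lay close together.

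CYBB, the electron-carrying subunit, had the largest difference of the 5 genes. In low RFI pigs CYBB-a ranged from 3.19 to 5.09 with a median of 4.33 on HF, and from 2.38 to 5.52 with a median of 3.53 on LF. In high RFI pigs it ranged from 3.103 to 5.46 with a median of 4.25 on HF, and from 3.22 to 4.31 with a median of 3.92 on LF. The diets overlapped widely, yet 20 of 24 HF pigs lay above the LF median. HF pigs averaged 4.25 ± 0.61 and LF pigs 3.69 ± 0.61 (SD, n = 24 each). The difference was 0.56 ± 0.17 (SE), a fold of 1.48 (limma, BH adjusted p = 0.0155). CYBB-b, which overlaps CYBB-a, gave 0.54 ± 0.17 (SE, BH adjusted p = 0.0201). CYBB-c, which shares no stretch with either, gave 0.35 ± 0.11 (SE, BH adjusted p = 0.0207), at a level of -0.72, and 0.66 (BH adjusted p = 0.0232) from the scanner's processed signal, from which background has been subtracted, against 0.55 for CYBB-a.

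CYBA, the partner of CYBB in the membrane, moved in the same direction. CYBA-a in low RFI pigs had a lowest value of 5.37, a median of 5.96 and a highest value of 6.67 on HF, against 5.13, 5.49 and 6.69 on LF. In high RFI pigs the same values were 5.46, 5.98 and 6.68 on HF and 5.33, 5.68 and 6.14 on LF. The highest pig of all 48 was thus an LF pig, while 6 LF pigs lay below the lowest HF pig. The difference was 0.34 ± 0.11 (SE), a fold of 1.27 (BH adjusted p = 0.0254), and CYBA-b gave 0.38 ± 0.11 (SE, BH adjusted p = 0.0147). The inverted probe CYBA-c read 0.61 on average, with a mean of 0.60 ± 0.17 in HF and 0.63 ± 0.15 in LF pigs (SD, n = 24 each). Its difference of -0.03 ± 0.05 (SE) was not called (BH adjusted p = 0.705) and turned to 0.10, not called, with spike-in centring, and from pig to pig it varied little with CYBA-a (r = -0.15 over 48 pigs). Of 2 probes with the gene name CYBA, the one called by diet and the one not called thus read opposite strands of a single stretch.

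Among the cytosolic subunits, NCF4 followed CYBB. NCF4-a in low RFI pigs had a lowest value of 2.91, a median of 4.02 and a highest value of 4.73 on HF, and 2.64, 3.27 and 4.76 on LF. In high RFI pigs these were 2.96, 3.73 and 4.52 on HF and 2.99, 3.39 and 3.83 on LF. Of 24 HF pigs, 22 lay above the LF median. NCF4-a averaged 3.86 ± 0.49 in HF and 3.42 ± 0.48 in LF pigs (SD, n = 24 each), and the difference of 0.44 ± 0.14 (SE), a fold of 1.36, was called (BH adjusted p = 0.0181). The identical spots NCF4-b and NCF4-c show the measurement error of 1 probe. They differed by 0.25 on average with an SD of 0.14 over the 48 arrays and correlated at r = 0.94, yet only NCF4-c was called, with 0.38 ± 0.11 (SE, BH adjusted p = 0.00881). NCF4-b, the NCF4 probe found by gene name, gave 0.30 ± 0.11 (SE) with a raw p of 0.0109, just over the threshold, and a BH adjusted p of 0.0538, and it was called with centring on the 75th percentile (0.32) and on spike-ins (0.42).

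RAC2, the haematopoietic Rac GTPase of the complex, was also higher in HF pigs. Its lowest, median and highest values in low RFI pigs were 4.14, 4.53 and 5.29 on HF and 3.67, 4.08 and 5.47 on LF. In high RFI pigs they were 4.23, 4.38 and 4.63 on HF and 3.69, 4.14 and 4.996 on LF. Of 24 LF pigs, 12 lay below the lowest HF pig, more than for any other of the 13 probes, although an LF pig was again the highest of all. RAC2 averaged 4.48 ± 0.27 in HF and 4.16 ± 0.44 in LF pigs (SD, n = 24 each), and the difference was 0.33 ± 0.10 (SE), a fold of 1.26 (BH adjusted p = 0.0175). NCF4 and RAC2 lie on the same pig chromosome in RefSeq, with 12 annotated genes between them.

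NCF1, the organiser, gave no call with median centring, and its probes disagreed. NCF1-c, the probe named NCF1 with a sequence of its own, averaged -1.03 ± 0.22 in HF and -1.13 ± 0.30 in LF pigs (SD, n = 24 each), and the difference of 0.10 ± 0.08 (SE) had an interval up to 0.25 (95%, BH adjusted p = 0.376). With spike-in centring it was 0.22 and called (BH adjusted p = 0.0401). From the scanner's processed signal it was 0.33 with median centring (BH adjusted p = 0.127) and 0.37 with centring on the 75th percentile (BH adjusted p = 0.087), neither called, so the size of this difference depends on the background treatment. The identical spots NCF1-a and NCF1-b gave differences with the opposite sign, -0.08 ± 0.06 (SE, BH adjusted p = 0.331) and -0.11 ± 0.05 (SE, BH adjusted p = 0.139). Both turned positive with spike-in centring, to 0.04 and 0.01, and were not called. Although they hold the same bases, NCF1-a and NCF1-b correlated at only r = 0.47 over the 48 pigs, and their difference had an SD of 0.20, about as large as the spread of either within a group. That NCF1-a reads NCF1 rests on its gene name in the files, and its correlation with NCF1-c was r = 0.09.

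**Figure D2:**
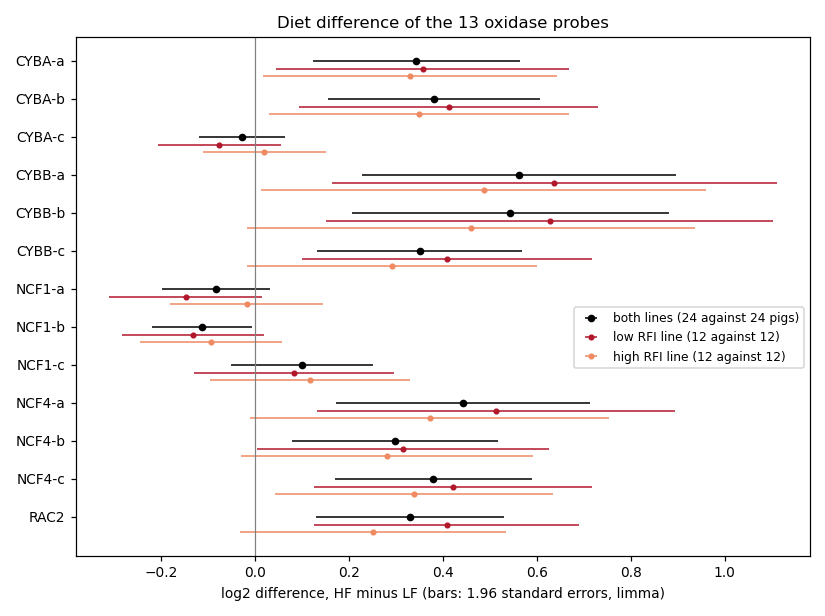
Diet difference (log2, HF minus LF) of the 13 subunit probes with bars of the 95% interval from limma, over both lines (black, 24 against 24 pigs) and within the low RFI (dark red) and high RFI line (orange, 12 against 12 pigs each). The estimates for the CYBB, NCF4 and RAC2 probes, CYBA-a and CYBA-b lie to the right of 0 in both lines, some with bars that reach 0, whereas CYBA-c and the NCF1 probes lie nearer to 0.

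No subunit probe was called by line. By line 2.17% of all probes were called, and 0 of the 13 subunit probes were, with limma as with an ANOVA of both factors. None of the 13 had an unadjusted p under 0.05, and the smallest was 0.280. The largest difference by line (low minus high RFI) was that of CYBB-b, at -0.17 ± 0.17 (SE), and CYBB-a gave -0.16 with an interval from -0.50 to 0.17 (95%), which includes line differences nearly as large as its diet difference. For RAC2 the line difference was 0.09 ± 0.10 (SE) and for NCF4-a 0.07 ± 0.14 (SE).

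The interaction of diet and line was called for 0 of 60305 probes with either tool, with 1674 probes at an unadjusted p under 0.05 in limma, none of them a subunit probe. The diet difference of CYBB-a was 0.64 ± 0.24 (SE) in low RFI and 0.49 ± 0.24 (SE) in high RFI pigs. That of NCF4-a was 0.51 ± 0.19 (SE) and 0.37 ± 0.19 (SE), that of CYBA-a 0.36 ± 0.16 (SE) and 0.33 ± 0.16 (SE), and that of RAC2 0.41 ± 0.14 (SE) and 0.25 ± 0.14 (SE). The diet differences of the lines differed by 0.15 for CYBB-a with an interval from -0.52 to 0.82, which does not show that they responded alike. With either line taken alone, 0 of the 13 probes were called in low RFI pigs and 1 in high RFI pigs. These smaller fits called 4529 and 4544 of all 60305 probes, beside 10641 with all pigs.

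The diet difference had the same sign on both scan days. CYBB-a gave 0.58 ± 0.22 (SE) on the first day and 0.55 ± 0.28 (SE) on the second, with 12 pigs of each diet per day. CYBA-a gave 0.35 and 0.34, NCF4-a 0.42 and 0.47, and RAC2 0.31 and 0.35. On all 6 slides the HF mean of CYBB-a and of NCF4-a was above the LF mean, and for CYBA-a and RAC2 this held on 5 of 6.

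Pig to pig spread was wide for the core genes. Within groups the SD of CYBB-a was 0.62, higher than that of 97.4% of all probes, and those of NCF4-a, CYBA-a and RAC2 were 0.49, 0.40 and 0.36, at the 95.2, 91.1 and 88.1 percentiles. The diet difference of CYBB-a thus equalled 0.91 of its within-group SD. In the low RFI line on LF, pig 11 had the highest value of CYBB-a (5.52), CYBA-a (6.69), NCF4-a (4.76) and RAC2 (5.47), and pig 6 had the second highest of all 4. With each of the 48 pigs left out in turn, the diet difference of CYBB-a stayed between 0.51 and 0.65 and the number of called subunit probes between 8 and 9.

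Once group means were removed, CYBA, CYBB and NCF4 varied together across the 48 pigs. Brightest probes of CYBB and NCF4 correlated at r = 0.89 (rho = 0.87, and r = 0.86 without the 2 pigs farthest from the CYBB median). CYBA and NCF4 correlated at r = 0.87 (rho = 0.85) and CYBA and CYBB at r = 0.83 (rho = 0.80). Without the 2 pigs farthest from the CYBA median, these were r = 0.84 and r = 0.77. RAC2 was less close, with r = 0.62 to CYBB (rho = 0.50, r = 0.49 without 2 pigs), r = 0.51 to CYBA (rho = 0.39, r = 0.29) and r = 0.49 to NCF4 (rho = 0.35, r = 0.31). In these pairs the 2 pigs left out were those farthest from the median of the gene other than RAC2. NCF1 depended on the probe: NCF1-c ran with CYBB-a (r = 0.53), whereas the brightest NCF1 probe, NCF1-a, ran against it (r = -0.30, rho = -0.42). These correlations describe 10 pairs of genes on shared arrays. They held on each scan day for CYBB and NCF4 (r = 0.88 and 0.91). The study's group, which holds CYBA, CYBB and NCF4, was formed from correlations that include these same pigs. That these genes varied together is therefore not independent evidence.

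**Figure D3:**
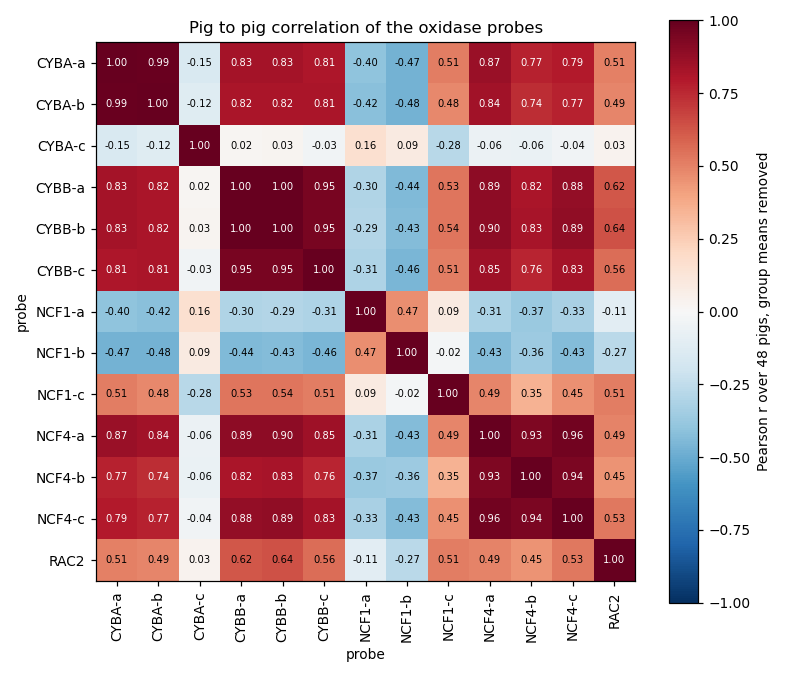
Pearson r between the 13 subunit probes over 48 pigs after the 4 group means were removed. CYBB, NCF4 and the CYBA-a and CYBA-b probes form a block with r of 0.74 or above, RAC2 stands at 0.45 to 0.64 to that block, the inverted CYBA-c between -0.15 and 0.03, and NCF1-a and NCF1-b below 0.

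The genes whose pattern was most like that of CYBB-a, among 9639 named genes that passed the background test on every array, were GMFG (r = 0.94), a regulator of actin branching in blood cells, VAV1 (r = 0.93), an exchange factor that loads Rac GTPases, FCER1G (r = 0.92) and TYROBP (r = 0.91), signalling adaptors of immune receptors, and FCGR3B (r = 0.91), an Fc receptor. NCKAP1L (r = 0.91), FCGR3A (r = 0.90), LY86 (r = 0.90), ARRB2 (r = 0.90) and AIF1 (r = 0.89), a macrophage marker, followed. The probes for FCGR3A and FCGR3B both carry the file name FCGR3B and may read 1 pig gene. NCF4, with r = 0.89, would have ranked 10th. The median r over all 9639 genes was -0.09. Of these 10 genes, 9 were called higher in HF pigs, by 0.36 to 0.46, beside 5% of named genes. LY86 was not called (0.28, limma, BH adjusted p = 0.0874). The study lists VAV1, FCER1G, NCKAP1L and ARRB2 among the most connected genes of its own group, and TYROBP and AIF1 are in that group too. All 10 genes were also picked by their correlation with CYBB in these same pigs. Their direction is therefore not independent evidence.

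Macrophage markers moved with the subunits. Of 14 markers with a probe, 9 were called higher in HF pigs and none lower, beside 5% and 16.2% of named genes. The median difference of the 14 was 0.45, beside -0.05 for all named genes. Those called included CD163 (0.71), C1QA (0.80), C1QB (0.76), C1QC (0.81), MRC1 (0.66) and CSF1R (0.48). Of the 14, 10 were in the study's own gene group, all 9 called markers among them, so their direction is not independent either. Of the 4 outside it, none was called with median centring. CD14 gave 0.31, MSR1 0.42 and LYZ 0.25 (limma, BH adjusted p = 0.0842, 0.0583 and 0.455). ADGRE1, the last of these 4 and well above background on 15 arrays, gave -0.02. CD68, in the study's group and well above background on 42 arrays, gave 0.09 and was not called either. The mean of the 14 markers was 2.70 ± 0.60 (SD, n = 24) in HF and 2.22 ± 0.47 (SD, n = 24) in LF pigs. The summed linear level of the list, relative to the array median, ranged from 71.3 to 478 and from 91.0 to 467 in low and high RFI pigs on HF, and from 64.1 to 383 and from 88.6 to 202 on LF. Within groups this mean correlated with NCF4 at r = 0.93 (rho = 0.92, r = 0.92 without 2 pigs), with CYBB at r = 0.91 (rho = 0.91, r = 0.91) and with CYBA at r = 0.88 (rho = 0.87, r = 0.85), but with RAC2 at r = 0.51 (rho = 0.45, r = 0.38). NCF4, CYBB, CYBA and 10 of the 14 markers belong to the study's group, formed from correlations in these pigs. Their high r is thus not independent evidence.

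The diet difference relative to these markers depended on which markers were taken. With the mean of all 14 as a covariate it was 0.07 ± 0.08 (SE) for CYBB, 0.04 ± 0.06 (SE) for NCF4, 0.03 ± 0.06 (SE) for CYBA and 0.17 ± 0.10 (SE) for RAC2, and 0 of 13 probes were called, while 13.1% of all probes still were. CYBB minus the marker mean was 1.55 ± 0.21 (SD, n = 24) in HF and 1.47 ± 0.30 (SD, n = 24) in LF pigs. For NCF4 it was 1.16 ± 0.22 and 1.20 ± 0.18, for CYBA 3.28 ± 0.28 and 3.42 ± 0.27 and for RAC2 1.79 ± 0.52 and 1.94 ± 0.43 (SD, n = 24 each). Against only the 4 markers outside the study's group, whose mean differed by 0.24, the subunit minus that mean was higher in HF pigs by 0.32 for CYBB, 0.20 for NCF4, 0.10 for CYBA and 0.09 for RAC2, with SEs of 0.09, 0.08, 0.07 and 0.09. These 4 were CD14, MSR1, LYZ and the dim ADGRE1. In bulk tissue, fewer cells of a type and less RNA per cell cannot be told apart.

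Other cell type markers moved less with the core. RAC2 ran with the mean of 11 T and NK cell markers (r = 0.85, rho = 0.82, and r = 0.77 without 2 pigs). Of these 11, CD3G (0.34) and NKG7 (0.31) were called higher in HF pigs, beside 5% of named genes. The other 9 were not called, among them CD3E (0.30), CD8A (0.28) and CD5 (-0.19). The median difference of the 11 was 0.10. The T and NK cell mean correlated with CYBB at r = 0.38, which fell to 0.10 without 2 pigs. Of 8 neutrophil markers, S100A8 (0.22) and LTF (0.38) included, 0 were called by diet, beside 21.2% of named genes. The neutrophil mean correlated with CYBB at r = 0.01 and with RAC2 at r = 0.03. Of 10 adipocyte markers 5 were called lower in HF pigs, beside 16.2% of named genes. LEP (-0.94) and SLC2A4 (-0.77) fell most, and ADIPOQ was not called (0.08). With spike-in centring 2 adipocyte markers were called lower and 1 higher. The adipocyte mean correlated with CYBA at r = -0.65 and with CYBB at r = -0.44. The part of these markers in the diet difference of RAC2 and CYBA was not tested. No B cell, endothelial, erythrocyte or adrenal marker was called with median centring, and of the kidney markers AQP2 (-0.63) was called lower while SLC12A1 was above background on no array.

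**Figure D4:**
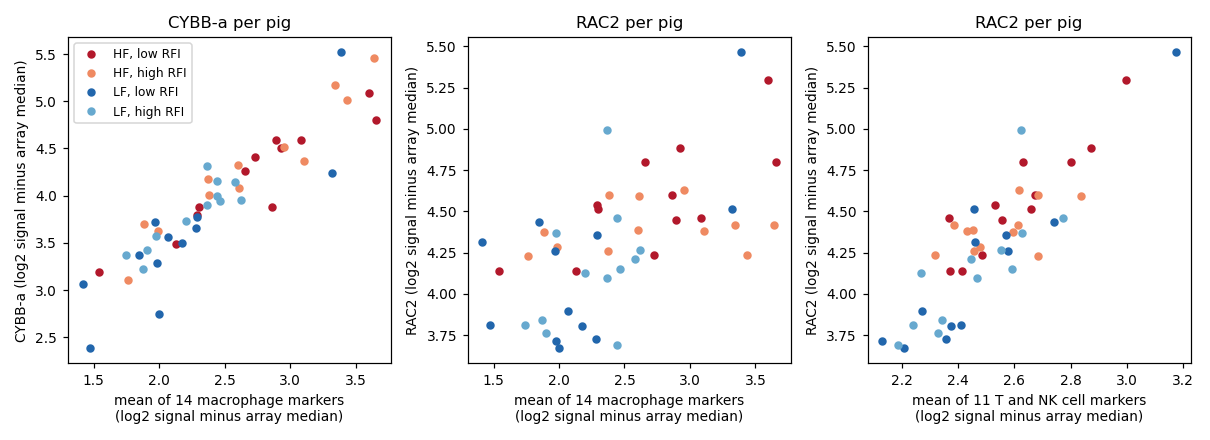
Level of CYBB-a and RAC2 (log2 intensity minus the array median) in each of 48 pigs against the mean level of 14 macrophage or 11 T and NK cell markers; colours give diet and line. CYBB-a followed the macrophage mean (r = 0.91 within groups), and RAC2 followed it less (r = 0.51) and the T and NK cell mean more (r = 0.85).

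Genes around the oxidase were counted by list. Of 9 other members and partners of the NADPH oxidase family with a probe, of 14 listed, 0 were called by diet, beside 21.2% of named genes. The dual oxidase DUOX2 gave 0.47 ± 0.28 (SE, BH adjusted p = 0.236), NOX1 was above background on no array, and RAC1, the widely expressed relative of RAC2, gave -0.11 ± 0.03 (SE, BH adjusted p = 0.0151), a fold within the threshold of 1.1. No probe was named for NOX4 or for CYBC1, which helps CYBB and CYBA to mature.

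Of 17 genes on the activation of the phagocyte oxidase, its inhibitors included, 7 were called higher and 2 lower in HF pigs, beside 5% and 16.2% of the brightest probes of all named genes. The 7 were the Rac exchange factors VAV1 (0.45 ± 0.12, SE) and PREX1 (0.28), the kinases SYK (0.30) and PIK3CG (0.42), the receptor chain FCER1G (0.44), the integrin ITGB2 (0.37) and ARHGDIB (0.17), which holds Rac proteins inactive in blood cells. These 7 were called higher with centring on the 75th percentile and with spike-in centring as well. VAV1 and FCER1G are among the most connected genes of the study's own group, so their direction is not independent evidence. VAV2 (-0.18) and HVCN1 (-0.24), a proton channel that balances the charge the oxidase moves, were lower, a call that was lost for both with spike-in centring. PRKCB, a kinase of NCF1, gave -0.07 and MPO, which uses the peroxide in neutrophils, was well above background on 3 arrays.

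Of 7 transcription factors with a probe, 0 were called higher and 1 lower, beside 5% and 16.2% of named genes, counts too small to set apart from those shares. SPI1, which drives CYBB and NCF4 in myeloid cells, gave 0.13 ± 0.08 (SE, BH adjusted p = 0.278) though it followed CYBB from pig to pig (r = 0.75). CEBPA, also an adipocyte factor, was called lower (-0.16), which was lost with both other centrings.

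Of 12 enzymes that remove superoxide and peroxide, 8 were called lower and 0 higher in HF pigs, beside 16.2% and 5% of named genes. The direction rests on the scaling, since 7 were called lower with centring on the 75th percentile and 0 with spike-in centring. Extracellular superoxide dismutase SOD3 fell by 0.42, PRDX3 of mitochondria by 0.32, and GPX1, GPX4 and PRDX6 by 0.28 each with median centring. By line 2 of the 12 were called: the plasma glutathione peroxidase GPX3 was lower in low RFI pigs (-0.71 ± 0.11, SE, BH adjusted p = 3.8e-05) and mitochondrial SOD2 was higher (0.31 ± 0.07, SE, BH adjusted p = 0.00318), beside 2.34% of named genes.

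**Figure D5:**
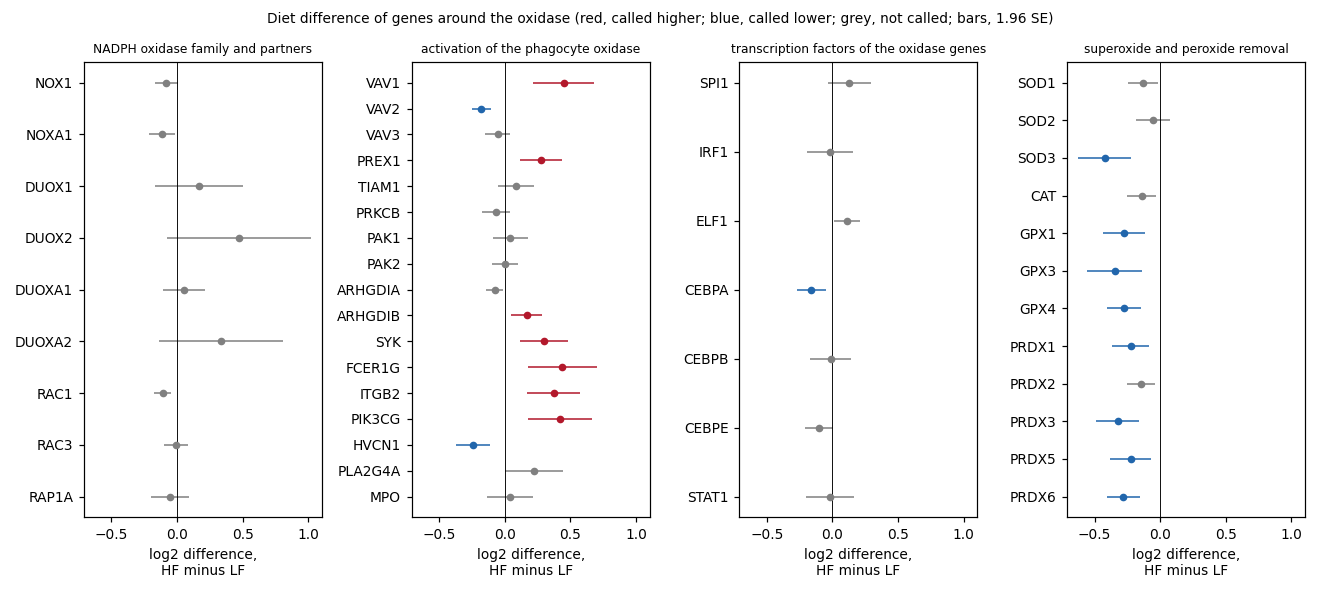
Diet difference (log2, HF minus LF, bars of the 95% interval) of genes around the oxidase, by list, with median centring; red marks genes called higher in HF pigs, blue lower, grey not called. The 7 red genes all belong to the activation list, and the blue peroxide removing enzymes are no longer called with spike-in centring.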

How the data were processed

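PRAT of 48 pigs was analysed, 1 array a pig. The deposited intensity values come from the authors' scanner software (Feature Extraction), with its flags for background, saturation and uniformity. The authors filtered spots in R 2.10.0 per the labels, took log2 and centred each array on its median. All 38142 entries of that deposited log2 table equalled, within 1e-06 after centring, log2 of a spot's median signal with its background left in, but its names matched in 2 cases, so names came from the scanner files. Here the same signal was centred on the median of 60305 probes without the authors' filter. The background left in this signal can compress differences of dim probes, for which values from the scanner's background-subtracted processed signal are also given. Diet, line and their interaction were fitted with limma 3.58.1 in R 4.3.3 (lmFit, eBayes, BH over all probes), after the script had been tested on simulated data. Gene symbols came from the files and RefSeq (26260 probes), and a gene with several probes is given by its brightest. Intervals are estimates ± the normal multiple of the SE. Named were all subunit probes, genes of the lists and the 10 genes most correlated with CYBB. Members and lists were chosen with earlier results of these data known, and the 7 probes without a subunit's gene name were added after the files were read. A few genes of the lists are not reported here and are in no count of a list. Columns mapped to no sample numbered 0. The number of arrays limits the precision. Alternatives were other scalings, background corrections, probe filters, blocks, array weights, single lines or diets, thresholds and leaving out pigs. Files were read and plots drawn in Python 3.11.15 (pandas 2.3.3, numpy 2.4.6, matplotlib 3.10.9).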

Additional observations from a re-analysis of the deposited data

How the results depend on the processing

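Of the 6 probes found by gene name, 2 to 3 were called by diet, and of all 13 probes 8 to 9, under the other scalings, background corrections, filters, blocks and array weights, with spike-in centring (4 and 10) and the settings that follow as exceptions. With the macrophage marker mean as covariate 0 of 6 and 0 of 13 were called, and the diet differences became 0.0348 for CYBA, 0.0724 for CYBB, 0.0394 for NCF4 and 0.17 for RAC2. With low RFI pigs alone 0 of 6 and 0 of 13 were called, with differences of 0.36, 0.64, 0.51 and 0.41 in that order, and with high RFI pigs alone 0 of 6 and 1 of 13, with 0.33, 0.49, 0.37 and 0.25. These fits hold fewer pigs. A fold over 1.5 left 0 of 6 and 0 of 13. NCF1-a turned to 0.0422 with spike-in centring. Differences relative to the macrophage markers changed when only those outside the study's group were taken instead of all 14. They moved from -0.14 to 0.10 for CYBA, 0.08 to 0.32 for CYBB, -0.04 to 0.20 for NCF4 and -0.15 to 0.09 for RAC2. Over all probes the calls by diet were 4529 in low RFI pigs alone, 4544 in high RFI pigs alone and 465 with a fold over 1.5, and those by line 321 on HF alone, 93 on LF alone and 230 with a fold over 1.5. Of the 45 other genes of the oxidase lists, 7 were called higher with all pigs, but 0 with the macrophage covariate, 0 in low RFI pigs alone, 2 in high RFI pigs alone and 0 with a fold over 1.5. The 11 called lower became 0 with spike-in centring, 7 with quantile normalization, with or without normexp, and with the covariate, 2 and 5 in low and high RFI pigs alone and 0 with a fold over 1.5. The 2 called by line became 1 on HF alone, 1 on LF alone and 1 with a fold over 1.5. With the replicate block, which follows numbers that pigs share across groups, 2 of 6 and 8 of 13 probes were called by diet, as were 11733 of all probes, and no other call of a subunit changed. Same-numbered pigs correlated at -0.25 to 0.48 with a median of 0.08. The median was -0.01 for pigs with other numbers and 0.06 for pigs on the same slide. Pigs with the same number always lay on the same slide, so the replicate block also takes up differences between slides. Whether the numbers pair the pigs beyond that was not tested. Leaving out each of the 48 pigs gave 2 to 3 of 6 and 8 to 9 of 13 calls by diet and 0 by line, 9932 to 11159 of all probes by diet and 1125 to 1484 by line, and differences of 0.31 to 0.39 for CYBA, 0.51 to 0.65 for CYBB, -0.11 to -0.06 for NCF1, 0.41 to 0.50 for NCF4 and 0.30 to 0.39 for RAC2. Where a setting changed a call, the cause was not tested. Dim probes (NCF1, CYBB-c, NCF4-b, NCF4-c) limit what the arrays resolve, and leaving out pigs and the 13 probe counts were added after the data were seen.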
